A study of Mus musculus with 38 samples.

Results

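Wild-type cortical collecting duct RNA was compared across the deposited RNA-seq tables of this mouse series: the 4 numbered WT units of a β-catenin table were set against the 4 vehicle libraries of a dDAVP infusion table. Genes were matched by Ensembl gene identifier, and 5035 of the 55416 genes in the β-catenin table were shared, which were all 5035 genes of the dDAVP table. Vehicle libraries came from C57BL/6 mice infused with saline for 5 days, and their partner group in the same table from C57BL/6 mice infused for 5 days with dDAVP (desmopressin), a vasopressin analogue selective for the V2 receptor. Each WT unit held 3 libraries, as did each of the 4 MT units of the same table, where MT stands for a mutation at S552 of β-catenin, a site that protein kinase A phosphorylates. The labels of the WT and MT libraries all gave C57BL/6 as genotype and dDAVP for 5 days as treatment, whereas the deposited table's own name says no AVP. The title of dDAVP library 4 also carries the number 3. The labels do not say whether a unit is 1 mouse, whether vehicle libraries come from separate mice, or how the S552 mutation was introduced, so spreads between samples may be technical.

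The collecting duct is built of principal cells, which reabsorb water through aquaporins and sodium through the epithelial sodium channel ENaC, and of intercalated cells, which handle acid and base. Type A intercalated cells secrete acid, and type B cells secrete bicarbonate through pendrin. Vasopressin acts on the V2 receptor of principal cells, raises cyclic AMP, activates protein kinase A and increases aquaporin-2. Ducts are dissected by hand from cortex in which most tubule mass is proximal tubule, so RNA of neighbouring segments can come along.

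Table and group coincide in this comparison: every vehicle library sits in one table and every WT unit in the other, so a difference between WT and vehicle and a difference between the tables cannot be told apart. No test was therefore run across tables. Values are TPM, a measure of abundance corrected for transcript length and library total, rescaled so that the shared genes sum to the same total in each library. Before rescaling, the shared genes held between 898112 and 925759 TPM in the vehicle libraries and between 862633 and 884214 TPM in the WT libraries. A difference is the mean of log2(rescaled TPM + 1) over the WT units minus that over the vehicle libraries. A gene was called apart when the 4 WT units did not overlap the 4 vehicle libraries and the means differed by 2-fold or more. The depth of the libraries is unknown, since TPM keeps no record of it.

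The vehicle table lists only genes above 10 TPM in each of its 8 libraries, whereas the β-catenin table has no such minimum. A gene that was low in vehicle and high in WT could thus not enter: of 7778 genes above 10 TPM in all 12 WT libraries, 2848 (36.6%) were not in the vehicle table. In the other direction 105 shared genes were at 10 TPM or less in at least 1 WT library. Libraries also differed in spread. The median SD of log2 values over the 4 samples was 0.42 in vehicle and 0.10 in WT, or 0.13 with 1 library per WT unit. Pearson correlations across genes lay between 0.768 and 0.970 among the vehicle libraries, with the lowest between vehicle 3 and vehicle 4, and between 0.958 and 0.987 among the WT units. A vehicle library and a WT unit correlated at 0.765 to 0.933, a range that overlapped the one within vehicle.

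Most shared genes overlapped between WT and vehicle, and the genes apart were a minority. Most principal cell markers and markers common to intercalated cells overlapped too, but 4 of 5 shared type B intercalated markers did not. WT units stood apart from vehicle in 249 genes (4.95% of 5035), with 175 higher in WT (3.48%) and 74 lower (1.47%). Without the fold minimum, 1320 genes (26.2%) did not overlap, 921 higher (18.3%) and 399 lower (7.92%). The median difference over all shared genes was 0.14, and 3155 genes (62.7%) were above 0, so the split of higher against lower depends on the scaling. It was 136 higher and 83 lower with TPM as deposited, 110 and 94 after median-of-ratios scaling, and 103 and 95 after quantile normalization. Without vehicle libraries 3 and 4, which correlated least, 238 genes were apart, 132 higher and 106 lower. Non-overlap is easier to meet with fewer libraries, so that count cannot be set directly against 249.

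**Figure D1:**
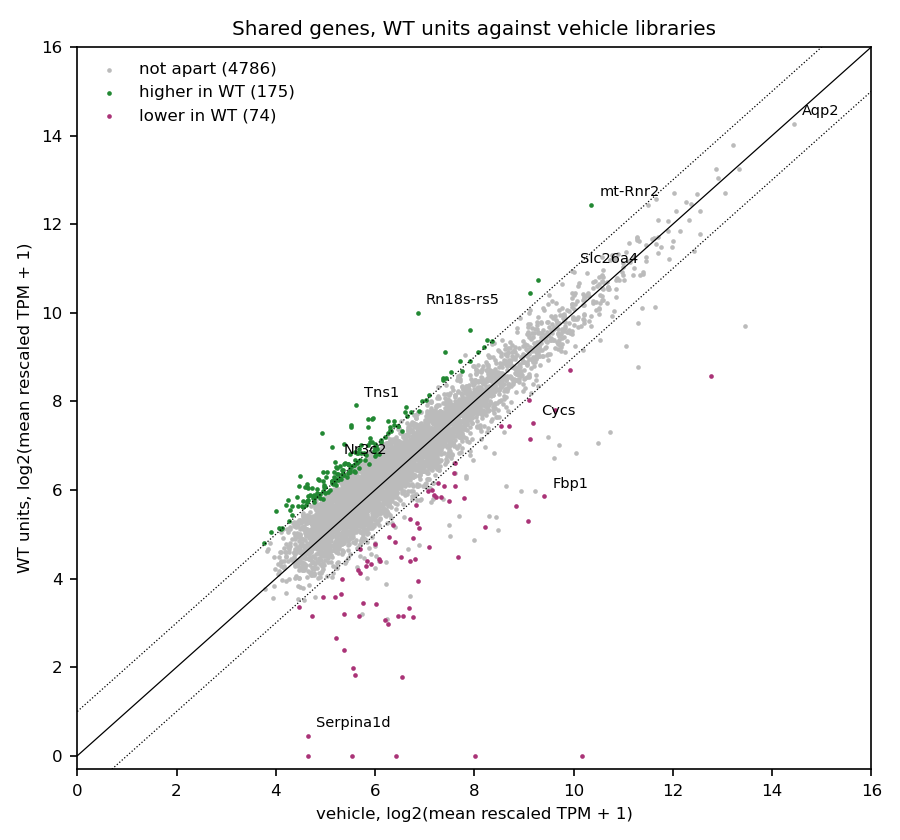
Mean level of each of the 5035 shared genes in vehicle (x axis) and in WT units (y axis), both as log2 of mean rescaled TPM + 1. Each point is a gene, the solid line is equality and the dotted lines are 2-fold differences. The 175 green genes stood apart as higher in WT and the 74 purple genes as lower, and several purple points reach 0 on the WT axis.

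Comparisons inside each table give a scale for these counts. dDAVP and vehicle libraries, which share a table, were apart in 87 of the same genes (1.73%) and did not overlap in 435 (8.64%). MT and WT units were apart in 1 gene (0.0199%), Commd1b, and did not overlap in 194 (3.85%). In limma fits within each table, 35 of 5035 genes (0.695%) passed an adjusted p of 0.05 between dDAVP and vehicle (7 to 47 with 1 library left out, fewest without dDAVP 3), and 0 of 15011 (0%) between MT and WT, where 683 genes had an unadjusted p under 0.05. Of the 249 genes apart between WT and vehicle, 143 (100 higher, 43 lower) also separated all 8 WT and MT units from all 8 vehicle and dDAVP libraries by 2-fold, and the remaining 106 did not. MT units against the same vehicle libraries, a comparison that shares the controls, gave 165 genes higher and 101 lower.

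In most genes that responded to dDAVP, WT units lay on the vehicle side of the dDAVP libraries, although the WT libraries are labelled as dDAVP-treated. Of the 28 genes higher with dDAVP in the limma fit, 27 had all 4 WT units below every dDAVP library, and of the 7 genes lower with dDAVP, 7 had all 4 WT units above every dDAVP library. The median difference of the 28 genes was 1.82 for dDAVP against vehicle and 0.18 for WT against vehicle. For the 7 genes these medians were -1.31 and -0.01. All 4 WT units fell inside the vehicle range in 9 of the 28 genes and in 0 of the 7. WT minus vehicle ran from -0.58 to 0.91 in the 28 genes and from -0.30 to 0.55 in the 7. None of the 35 genes was apart between WT and vehicle (0 of 28 and 0 of 7, where 4.95% of all shared genes were). At that share few of 35 genes would be apart. The dDAVP and WT differences use the same vehicle libraries, so they are given side by side and not as separate evidence.

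Aqp2, the water channel that vasopressin regulates, had 22389, 24216, 22853 and 19523 rescaled TPM in vehicle 1 to 4. It had 57838, 64226, 79210 and 67745 in the dDAVP libraries. The WT units had 12759, 31587, 17656 and 16843. WT units thus lay on both sides of the vehicle range, with WT 2 highest, and none came near the dDAVP libraries. Aqp2 was higher with dDAVP by 1.59 on the log2 scale (SE 0.18, limma adjusted p = 0.0028), and WT minus vehicle was -0.25. Across the other scalings the limma call on Aqp2 was lost only with quantile normalization (adjusted p = 0.70).

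Crem encodes a transcription factor that is itself induced through cyclic AMP. Its level was 55.2, 124, 55.4 and 36.7 rescaled TPM in vehicle, 368, 415, 442 and 347 with dDAVP, and 54.7, 56.6, 60.1 and 65.3 in the WT units. All 4 WT units fell inside the vehicle range and far under the dDAVP range. Crem was higher with dDAVP by 2.65 (SE 0.31, limma adjusted p = 0.0028), while WT minus vehicle was -0.05. Car15, a membrane-anchored carbonic anhydrase, had 2064, 1628, 1593 and 1566 in vehicle, 7477 to 10264 with dDAVP, and 2222, 2028, 2440 and 2735 in WT. One WT unit was inside the vehicle range and the others just above it, giving a difference of 0.46 against 2.31 for dDAVP (SE 0.16, limma adjusted p = 4.8e-05).

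Abhd3, a phospholipase of the α/β hydrolase family, showed the same order, with 70.8 to 107 rescaled TPM in vehicle, 450 to 626 with dDAVP and 68.5 to 114 in WT. Id2, an inhibitor of DNA binding by helix-loop-helix factors, went the other way under dDAVP. It had 643, 717, 445 and 701 in vehicle, 208, 221, 135 and 180.2 with dDAVP, and 891, 381, 414 and 713 in WT. Its WT units spread wider than vehicle, 2 below and 1 above that range, and all 4 stayed above the dDAVP libraries. Wfdc2, a secreted whey-acidic protein, was the exception to the order. Wfdc2 had 541 to 800 rescaled TPM in vehicle, 1061 to 1556 with dDAVP and 1057 to 1076 in WT, so that 3 of its 4 WT units lay inside the dDAVP range.

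**Figure D2:**
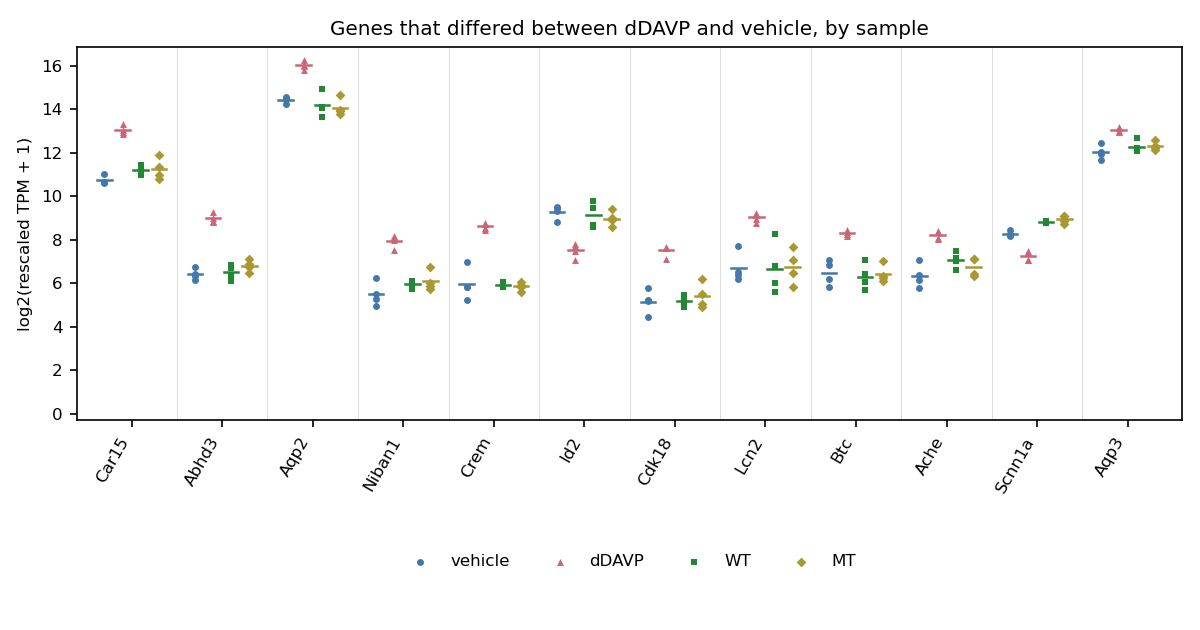
Level per sample, as log2 of rescaled TPM + 1 (y axis), of the 10 genes with the smallest p between dDAVP and vehicle, with Scnn1a and Aqp3 added. Points are the 4 libraries of vehicle and dDAVP and the 4 units of WT and MT, and bars are group means. In every gene shown the WT points lie clear of the dDAVP points, on the vehicle side.

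Scnn1a and Scnn1b of ENaC and the regulatory genes Nr3c2 and Nedd4l were higher in WT units without overlap, while Scnn1g of ENaC overlapped. Of 17 shared members of the list of principal cell transport and hormone response genes, 1 was apart (against 3.48% of all genes called higher) and 5 did not overlap, all higher (against 18.3%). The list median was 0.49, against 0.14 for all shared genes. Nr3c2, the mineralocorticoid receptor that mediates aldosterone signalling, was the member apart. Its level was 39.4, 40.7, 36.1 and 26.2 rescaled TPM in vehicle and 98.9, 96.5, 97.6 and 97.2 in WT, a difference of 1.45 with no overlap. Nr3c2 was also apart when MT units and dDAVP libraries were included.

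The ENaC subunits differed less. Scnn1a, the α subunit, had 290, 299, 309 and 343 rescaled TPM in vehicle and 470, 430, 458 and 453 in WT, a difference of 0.55 without overlap. dDAVP moved Scnn1a the other way, to 132, 168, 180.2 and 133, which was lower by limma (log2 difference -1.03, SE 0.17, adjusted p = 0.021). Scnn1b, the β subunit, had 829, 723, 738 and 735 in vehicle and 1215, 1107, 1366 and 1240 in WT, a difference of 0.70 without overlap. Scnn1g, the γ subunit, overlapped, with 387 to 889 in vehicle and 858 to 908 in WT. Nedd4l, a ubiquitin ligase that removes ENaC from the membrane, had 145 to 245 in vehicle and 361 to 375 in WT, also without overlap. Avpr2, the V2 receptor itself, had 851 to 1273 in vehicle and 820 to 1674 in WT and overlapped, as did Aqp3, the basolateral water channel, with 3229 to 5623 and 4319 to 6487.

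Both intercalated cell types had higher marker sums in WT units. The 5 shared type B markers summed to 2640, 2455, 1915 and 1893 rescaled TPM in vehicle 1 to 4 and to 4369, 2984, 4665 and 4215 in WT 1 to 4, with no overlap. All 5 members were above 0, 4 did not overlap (18.3% of all genes did so as higher) and 1 was apart (3.48% of all genes), with a median of 0.78. The 6 shared type A markers summed to 2260, 2307, 1509 and 1661 in vehicle and 2500, 2679, 2360 and 2448 in WT, also without overlap, with 1 of 6 apart (3.48% of all genes), 2 not overlapping and a median of 0.60. The 15 shared markers common to intercalated cells overlapped in sum, from 14120 to 17912 in vehicle and from 16354 to 18703 in WT. Of these 15, 11 were above 0 and 4 below. Among them 4 did not overlap as higher (18.3% of all genes) and 1 as lower (7.92% of all genes). The 1 gene apart was Hepacam2 (1.03), whose call was lost without vehicle 4 (0.70), WT 1 or WT 3 (0.97 for each). Principal cell markers summed to 39482 to 42428 in vehicle and 33097 to 62482 in WT, on both sides of vehicle. Aqp2 alone made up much of these sums, with 19523 to 24216 in vehicle and 12759 to 31587 in WT. Gene by gene, 11 of the 12 shared principal cell markers were above 0 (62.7% of all genes), with a median of 0.41. Of these 12, 1 did not overlap, as higher (18.3% of all genes), and 0 were apart. The median of the 15 markers common to intercalated cells was 0.24. In bulk ducts, more cells of a type and more RNA per cell cannot be told apart.

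Slc26a4, which encodes pendrin, had 1182, 1187, 873 and 762 rescaled TPM in vehicle and 2157, 1404, 2316 and 1946 in WT. Every WT unit was above every vehicle library, and the difference of 0.97 stayed just short of 2-fold. The dDAVP libraries were lower, from 358 to 620, without passing the limma threshold (adjusted p = 0.11). Slc4a9, a bicarbonate transporter of type B cells, had 541 to 817 in vehicle and 858 to 1246 in WT, and Insrr, a receptor that senses alkaline pH, had 143 to 200 in vehicle and 276 to 407 in WT and was apart (1.11). Of the type A markers, Slc4a1, the basolateral chloride-bicarbonate exchanger, overlapped with 258 to 388 in vehicle and 362 to 777 in WT. Kit, a receptor tyrosine kinase, did not, with 134 to 147 and 227 to 263. Adgrf5, an adhesion G protein-coupled receptor, was apart (1.33), with 26.1 to 119 in vehicle, where vehicle 4 was low, and 139 to 259 in WT. Without vehicle 4 the difference in Adgrf5 was 0.85 and the call was lost. Foxi1, the transcription factor that specifies intercalated cells, had 325 to 539 in vehicle and 662 to 1023 in WT without overlap. Slc4a9, Kit and Foxi1 were picked after their values were seen, so they do not stand for the other markers. Of the 15 markers common to intercalated cells, the 4 below 0 are not named here.

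Proximal tubule genes were lower in WT on average, and the samples of both groups varied widely in them. All 12 shared proximal tubule markers, of 20 in the list, were lower in WT on average, with a median of -3.22. Yet 3 were apart (against 1.47% of all genes called lower) and the other 9 overlapped. Markers entered only if above 10 TPM in all 8 libraries of the vehicle table. A marker low there and high in WT could thus not be counted, which tilts the list towards lower in WT. The 12 markers summed to 11635, 16165, 55457 and 1796 rescaled TPM in vehicle 1 to 4, and to 684, 346, 6669 and 1767 in WT 1 to 4. Vehicle 4 was thus as low as WT 4 and under WT 3, and vehicle 3 was the highest sample of all. dDAVP libraries ran from 2799 to 22414 and MT units from 195 to 2647.

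Fbp1, fructose bisphosphatase of gluconeogenesis, had 530, 587, 1426 and 160 rescaled TPM in vehicle and 16.0, 10.5, 154 and 48.2 in WT. WT 3, the highest, came close to vehicle 4, the lowest, and the difference of -3.89 rested on spreads (SD) of 1.29 and 1.68 and was -4.60 without WT 3. Slc34a1, the proximal phosphate transporter, had 296, 472, 2545 and 29.4 in vehicle and 13.2, 7.68, 450 and 45.1 in WT, and overlapped. Other genes with large downward differences followed the same samples: Akr1c21, a hydroxysteroid dehydrogenase, had 490, 418, 1123 and 133 in vehicle and 14.0, 6.24, 88.8 and 45.5 in WT (-4.01, and -4.61 without WT 3 or -3.40 without WT 2). Slc3a1, part of the cystine transporter of the brush border, had 33.4, 56.5, 176 and 26.1 against 1.65, 0.622, 21.6 and 5.58 (-3.46, and -4.19 without WT 3). In Slc3a1 too, vehicle 3 and WT 3 were the highest of their groups. The part of proximal tubule RNA in the other genes called lower was not tested. Markers of the thick ascending limb (5 shared of 11, median -0.12) and of the distal convoluted and connecting tubule (4 of 11, median -0.70) overlapped in sum, the first with 776 to 2133 in vehicle and 893 to 2234 in WT.

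**Figure D3:**
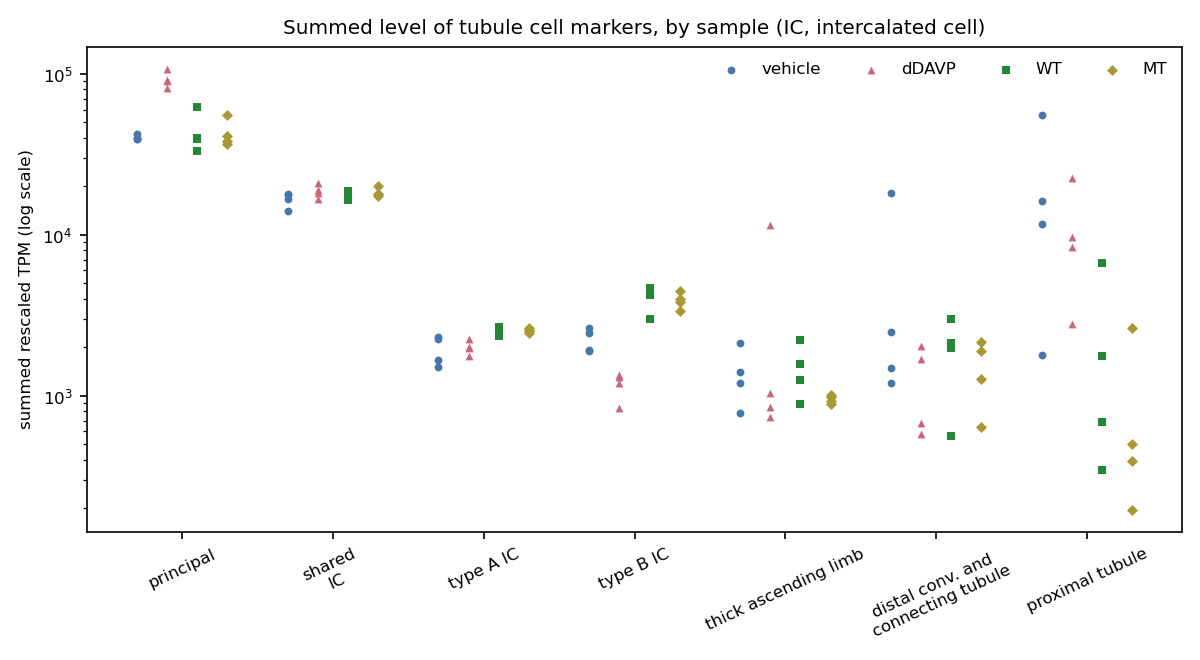
Summed rescaled TPM of the shared markers of each tubule cell type (y axis, log scale) in the 4 vehicle and 4 dDAVP libraries and the 4 WT and 4 MT units. Type B sums lie at 1893 to 2640 in vehicle and 2984 to 4665 in WT, and proximal tubule sums range from 1796 to 55457 in vehicle and from 346 to 6669 in WT.

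The largest upward difference among named genes was in a ribosomal RNA, followed by Tns1 and mt-Rnr2. Rn18s-rs5, a copy of 18S ribosomal RNA on chromosome 17 (39846354 to 39848202 in RefSeq's GRCm38.p6), had 72.1, 70.8, 153 and 165 rescaled TPM in vehicle and 875, 1059, 1114 and 1060 in WT. The difference of 3.25 had no overlap. The MT units, at 935, 859, 829 and 733, were also above all vehicle libraries, and 3 of them lay below every WT unit. Reads of near-identical ribosomal copies cannot be assigned with certainty, and the other table names the same identifier Rn18s. Tns1, tensin 1, which links actin to focal adhesions (chromosome 1, 73910232 to 74124548), had 47.4, 51.7, 42.3 and 50.5 in vehicle and 217, 305, 190 and 252 in WT, a difference of 2.29 without overlap. Itpr2, an inositol trisphosphate receptor that releases calcium from the endoplasmic reticulum (chromosome 6, 146108299 to 146502258), had 46.5, 53.1, 37.2 and 41.7 in vehicle and 170, 175, 163 and 173 in WT (1.92). Of the 10 largest downward differences among named genes, only those in Serpina1d, Exosc6 and Mir8114 held when MT units and dDAVP libraries were included. All 10 of the largest upward differences among named genes held in that comparison.

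The others of these 10 were Crim1, a transmembrane regulator of bone morphogenetic proteins (2.02), Thbs1, the matrix protein thrombospondin 1 (1.98), Dst, the cytoskeletal linker dystonin (1.90), Ogt, the O-GlcNAc transferase (1.81), Tfcp2l1, a transcription factor of collecting duct cells (1.74), and Amotl2, an angiomotin of cell junctions (1.73), with mt-Rnr2 below. Tfcp2l1 had 166, 160, 116 and 230 rescaled TPM in vehicle and 512, 587, 530 and 568 in WT, with no overlap. Crim1 had 23.8, 20.9 and 23.3 in vehicle 1 to 3 but 68.5 in vehicle 4, still under the 119 to 134 of WT.

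**Figure D4:**
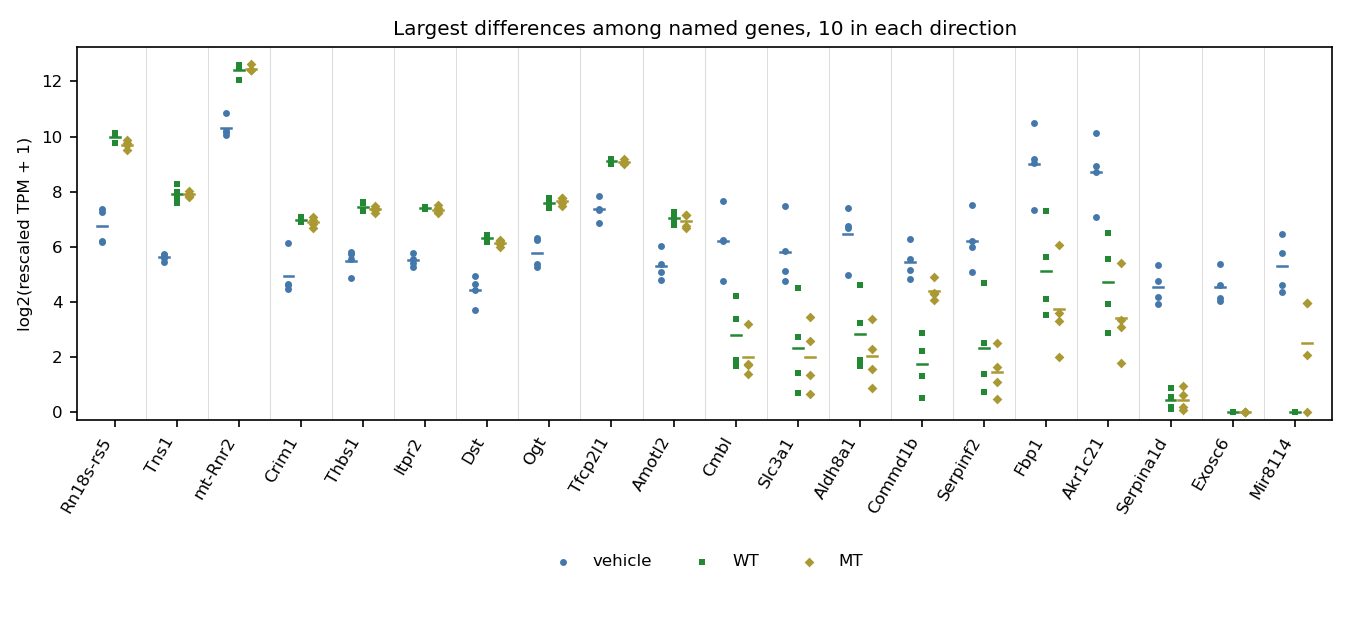
Level per sample, as log2 of rescaled TPM + 1 (y axis), of the 10 named genes with the largest differences in each direction. Points are the 4 vehicle libraries and the 4 WT and 4 MT units, and bars are group means. WT and MT points lie together and clear of vehicle in the upper 10 genes, whereas in Fbp1, Akr1c21 and Slc3a1 the points of each group spread widely.

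Mitochondrially encoded RNA was higher in WT units as a group. All 9 shared members were above 0 (62.7% of all genes were), 7 did not overlap (18.3%), 3 were apart (3.48%) and the median was 0.89. mt-Rnr2, the large mitochondrial ribosomal RNA, had 1137, 1190, 1059 and 1850 rescaled TPM in vehicle and 5713, 4200, 6046 and 6226 in WT (2.10). mt-Rnr1, the small one, had 302, 183, 163 and 317 in vehicle and 820, 527, 829 and 959 in WT (1.72). mt-Nd5, a subunit of complex I, had 556, 717, 670 and 544 in vehicle and 1703, 1288, 1985 and 1856 in WT (1.45). WT 2 was the lowest unit in each of these 3 genes and still above all vehicle libraries. mt-Nd1 and mt-Cytb, coding for subunits of complexes I and III, overlapped (0.23 and 0.36).

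Nuclear genes of oxidative phosphorylation did not follow. Of 80 shared members, 0 were apart as higher and 2 as lower, near the 1.47% of all genes. Among them 9 did not overlap as higher (18.3% of all genes did) and 15 as lower (7.92% of all genes). The share not overlapping was thus below that of all genes as higher and above it as lower. Of the 80, 34 were above 0 (62.7% of all genes), with a median of -0.06. Cycs, cytochrome c, had 678, 640, 543 and 443 rescaled TPM in vehicle and 191, 170, 173 and 194 in WT, a difference of -1.64 without overlap. Sdhc, a membrane anchor of succinate dehydrogenase, had 460 to 693 in vehicle and 234 to 277 in WT (-1.06), and at -0.95 without vehicle 3 Sdhc was no longer apart. Among cytosolic ribosomal proteins, 6 of 83 were apart, all higher (3.48% of all genes), and 63 were above 0 (62.7% of all genes), with a median of 0.26. In this list 29 did not overlap as higher (18.3% of all genes) and 5 as lower (7.92% of all genes). Their sum was 13528 to 15817 in vehicle and 17023 to 18325 in WT, without overlap. The dDAVP libraries, of the same table as vehicle, were also above vehicle, with sums of 16592 to 18190 and a median difference of 0.30. Rps25 of the small subunit had 248, 298, 176 and 113 in vehicle and 487, 489, 435 and 512 in WT (1.29), with vehicle 4 lowest. Cycs and ribosomal protein genes have processed copies in the genome, and how reads were divided among them was not tested.

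Gene span, from first to last base in RefSeq's GRCm38.p6, ran with the difference. The 4980 genes that could be placed by symbol (98.9%) were split by span into 5 groups of 996. The median difference was 0.06 in the shortest group and 0.06, 0.12, 0.18 and 0.27 in the next ones. The share called apart as higher was 1.91% in the shortest group and 7.33% in the longest, 19 and 73 genes, while the share called lower was 1.41% and 0.602%. Within the β-catenin table, MT minus WT had medians between -0.03 and 0.01 over the same 5 groups. Within the vehicle table, dDAVP minus vehicle went from 0.03 in the shortest group to -0.11 in the longest. The part of span in the differences of single genes was not tested.

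**Figure D5:**
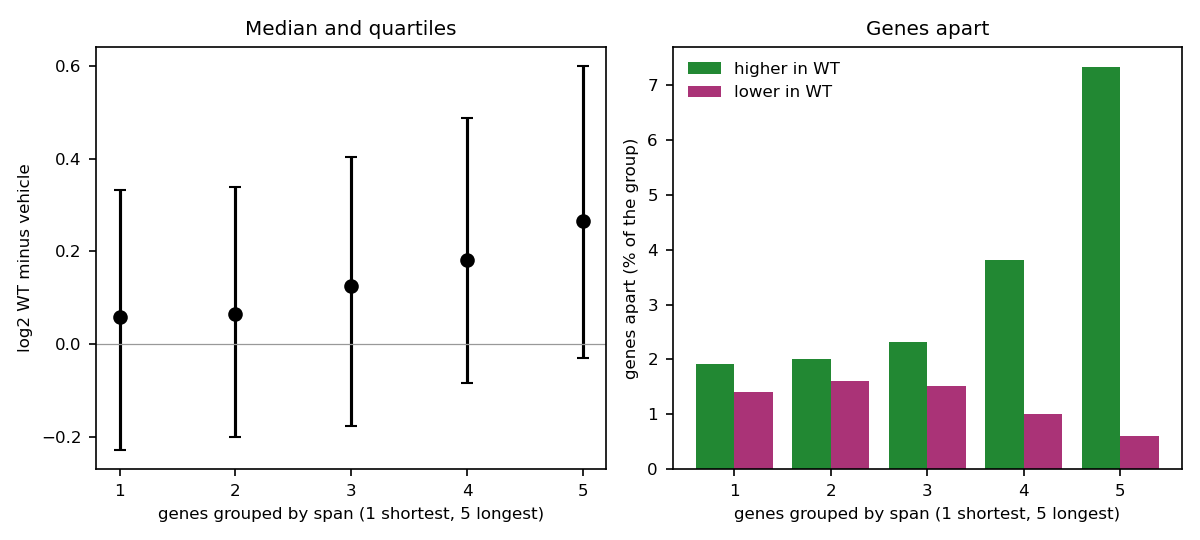
Difference between WT units and vehicle by gene span (x axis, 5 groups of 996 genes from shortest to longest). Left, the median (point) and quartiles (bars) of log2 WT minus vehicle; right, the percentage of genes apart, higher (green) or lower (purple). The median goes from 0.06 to 0.27 and the share higher from 1.91% to 7.33%.

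Some shared genes were listed at 0 in the WT libraries. Exosc6, a core subunit of the RNA exosome on chromosome 8 (111056339 to 111057664 in RefSeq's GRCm38.p6), had 16.4, 15.4, 40.9 and 23.1 rescaled TPM in vehicle and is listed at 0 in all 12 WT libraries and in the MT units. Mir8114, a microRNA locus, had 23.2, 53.1, 87.2 and 19.2 in vehicle and is also listed at 0 in WT, while 3 of the MT units had 3.24, 14.4 and 14.3 and the other 0. In all, 5 shared genes were listed at 0 in all 12 WT libraries. Of the 74 genes called lower, 16 were predicted models or had no symbol, against 3 of the 175 called higher. The share of such entries among all shared genes was not counted, so these counts have no background. With the minimum on the vehicle table alone, a shared entry at 0 in WT could only appear as lower. Commd1b, a near copy of the copper metabolism gene Commd1, had 34.8, 45.7, 27.0 and 77.0 in vehicle and 3.64, 0.413, 1.47 and 6.33 in WT. The MT units had 15.8, 18.5, 28.9 and 18.7, all above WT and 3 of them below every vehicle library. MT minus WT was 2.67. In the limma fit of that table the difference was 2.61 (SE 0.45), with an adjusted p of 0.97. Its parent Commd1 had 288 to 418 in vehicle and 349 to 404 in WT and overlapped. How the reads were divided between copy and parent was not tested.

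Nnt encodes the mitochondrial transhydrogenase, of which part is deleted in the C57BL/6J substrain. Its shared entry had 116, 144, 109 and 61.9 rescaled TPM in vehicle and 32.8, 26.0, 28.6 and 30.3 in WT, a difference of -1.78 without overlap. The β-catenin table, however, holds 2 entries named Nnt, and only 1 is in the vehicle table. As deposited, the WT libraries averaged 25.8 TPM in the shared entry (18.14 to 29.94) and 117 TPM in the second (73.76 to 137.79), against a vehicle mean of 97.5 TPM (57.32 to 130.32) in the only entry. The difference in Nnt and the number of entries cannot be told apart.

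β-catenin is the gene mutated in the MT units of the second table. Ctnnb1, β-catenin itself, had 304, 257, 303 and 281 rescaled TPM in vehicle and 422, 440, 457 and 448 in WT, a difference of 0.63 without overlap, and the MT units lay at 420 to 462. Cdh1, E-cadherin, which binds β-catenin at adherens junctions, had 379, 407, 258 and 266 in vehicle and 619, 699, 618 and 676 in WT and was apart (1.02), a call lost without vehicle 3 (0.92), vehicle 4 (0.93) or WT 2 (0.99). Jup, the junction protein plakoglobin, had 168 to 253 in vehicle and 358 to 436 in WT (0.89). Of the 9 shared members of this list, 9 were above 0 (62.7% of all genes), 4 did not overlap (18.3%) and 1 was apart (3.48%), with a median of 0.46 (0.34 after median-of-ratios scaling). The 5 shared Wnt target genes overlapped one by one, with a median of 0.36.

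Of 10 shared genes of cyclic AMP and protein kinase A signalling, 5 were above 0, 3 did not overlap, all higher (18.3% of all genes), and 0 were apart. The list median was 0.06 and turned to -0.06 under median-of-ratios scaling, while the summed level was 1781 to 2136 in vehicle and 2145 to 2247 in WT, without overlap. Of 9 CREB target genes, 4 were above 0 and 5 below (median -0.05), and 2 were apart as higher (3.48% of all genes): Ppargc1a, a coactivator of mitochondrial genes (1.11), and Crebzf, a leucine zipper factor (1.17). Without vehicle 3 neither was apart, with 0.84 for Ppargc1a and 0.90 for Crebzf, and Ppargc1a was not apart without vehicle 4 either (0.99). The 12 immediate early genes overlapped in every case. Fos, the best known of them, had 713, 2216, 1044 and 2243 rescaled TPM in vehicle and 2527, 1269, 740 and 2045 in WT, with large spreads in both. Hsp90aa1, an inducible chaperone, was the 1 gene apart among 18 heat shock members, near the 4.95% of all genes. Of these members, 2 did not overlap as higher (18.3% of all genes) and 3 as lower (7.92% of all genes). Hsp90aa1 had 131 to 219 in vehicle and 353 to 434 in WT (1.14, and 0.99 without vehicle 4, where the call was lost). Errfi1, a feedback inhibitor of the epidermal growth factor receptor, was the 1 gene apart among 9 corticosteroid response members (1.47% of all genes were apart as lower), lower in WT with 59.0, 138, 193 and 67.1 in vehicle and 43.8, 24.3, 35.9 and 45.2 in WT (-1.46).

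Of 7 shared nuclear-retained and spliceosome-associated RNAs, 7 were above 0 (62.7% of all genes) and 2 were apart as higher (3.48% of all genes), with a median of 0.66. Pnisr, a serine-arginine rich nuclear protein, had 69.2, 67.2, 23.4 and 30.3 rescaled TPM in vehicle and 109, 128, 119 and 107 in WT (1.41). Clk1, a kinase of splicing factors, had 93.5, 104, 14.7 and 62.5 in vehicle and 159, 140, 130 and 127 in WT (1.31). In both genes vehicle 3 was the lowest sample, and without it Clk1 differed by 0.70 and was not apart. Glycolysis genes (13 shared, 0 apart, median -0.12), tubule injury genes (12 shared, 0 apart, median -0.05) and interferon-stimulated genes (8 shared, 0 apart, median 0.06) had none apart, where 4.95% of all genes were. Yet 4 of the 13 glycolysis genes did not overlap as lower (7.92% of all genes) and 2 as higher (18.3% of all genes). The glycolysis sum was 22374 to 26853 rescaled TPM in vehicle and 20664 to 21796 in WT, without overlap. It was 20788 to 22593 in the dDAVP libraries.

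Markers of cells outside the tubule were few among the shared genes. Of 10 endothelial, 11 stromal and 12 immune markers, 2, 1 and 2 were shared, 0 were apart, and their sums overlapped between vehicle and WT (123 to 218 against 119 to 257 for the endothelial pair). No podocyte or red blood cell gene was shared. In the β-catenin table the podocyte gene Nphs1 was at 0 to 0.57 TPM in the WT libraries, the red blood cell gene Hbb-bs ranged from 0.66 to 15856 TPM and Slc12a1 of the thick ascending limb from 0.06 to 469.71 TPM.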

How the data were processed

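The deposited RNA-seq files hold TPM, computed by the authors. The submitters' processing notes name STAR, RSEM and mm10 without versions or roles, and per the labels' protocols cDNA came from the SMARTer V4 kit and libraries from Nextera XT. Per the file headers, the vehicle table keeps genes above 10 TPM in all 8 libraries. Here, genes were matched by Ensembl identifier, each library was rescaled over the 5035 shared genes, and the 3 libraries of a unit were averaged. Across tables, non-overlap of 4 against 4 samples and a 2-fold difference (pseudocount 1) were described without a test. Within tables, limma 3.58.1 (R 4.3.3, eBayes with trend, two-sided, Benjamini-Hochberg adjustment) was fitted on log2(TPM + 1), for MT against WT with a mean TPM of 1 or more. Scripts were tested on simulated data. Members, 35 gene lists and tests were chosen with earlier results of these data known. Named genes are the 10 largest differences in each direction among genes apart with a symbol that is no predicted model, up to 4 genes apart per list, the 10 genes of smallest p between dDAVP and vehicle, and a fixed list of collecting duct genes; Slc4a9, Kit, Foxi1, Nedd4l, Jup, Wfdc2, Commd1, mt-Nd1 and mt-Cytb were added after their values were seen. Spans and positions are RefSeq's (GRCm38.p6). Alternatives covered scaling, pseudocount, fold, level and left-out samples. The ATAC-seq files were not used here.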

Additional observations from a re-analysis of the deposited data

Results flagged for a closer look

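In the 67 named genes, the vehicle and WT groups were each examined for 1 sample far from the other 3, relative to the range of the group; 9 of 134 groups of 4 had one, and chance gives about 1 in 20 groups. Vehicle 4 stood off in mt-Rnr2 (1850 rescaled TPM against 1059 to 1190 in the others), Crim1 (68.48) and Lcn2 (208.6), and vehicle 1 in Scnn1b (828.7), Car15 (2064) and Umod (913.7). WT 2 stood off in Aqp4 (465.5), a water channel, and WT 3 in the proximal tubule transporter gene Slc34a1 (450.1) and in Serpinf2 (24.92). WT 2 was also the highest WT unit in Aqp2 (31587), and WT 3 in the summed proximal tubule markers (6669).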

How the results depend on the processing

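The count of genes apart between WT units and vehicle was 249. It was 142 with a pseudocount of 10, 1320 with no fold minimum and 37 with a fold of 4. The split changed as well, from 175 higher and 74 lower to 5 higher and 32 lower with a fold of 4. Among genes above 10 TPM in every WT library, 175 were apart as higher and 35 as lower. Leaving out 1 vehicle library or WT unit gave 218 to 345 genes. Non-overlap is easier to meet with fewer samples, so counts with samples left out cannot be set directly against the full ones. With library 1 of each WT unit in place of the mean, 203 genes were apart, 154 higher and 49 lower. Between dDAVP and vehicle, 87 genes were apart, 435 with no fold minimum, 11 with a fold of 4, and 98 to 138 with 1 library left out (135 without vehicle 1, 138 without dDAVP 2). Between MT and WT, 1 gene was apart, 194 with no fold minimum, and 1 to 9 with 1 unit left out (3 without WT 1, 6 without WT 2, 9 without MT 1, 5 without MT 4). The limma count between dDAVP and vehicle was 35, and 7 to 47 with 1 library left out (18 and 17 without vehicle 1 and 2; 16, 23, 7 and 19 without dDAVP 1 to 4). The main fits assumed no pairing by replicate number. Correlations of deviations between vehicle and dDAVP libraries of the same number ran from -0.15 to 0.23. Vehicle 1 and vehicle 2 correlated best with the dDAVP library of their own number, and vehicle 3 and vehicle 4 with another. These values cannot settle whether the samples were paired. A replicate block gave 8 genes between dDAVP and vehicle and 0 between MT and WT, where leaving out 1 unit gave 0 to 5 (1 without WT 3, 2 without WT 4, 1 without MT 2, 5 without MT 4). The number of the 35 dDAVP genes with all WT units on the vehicle side was 34, and 32 to 35 under alternatives chosen after seeing the data. None of the 44 named genes apart changed sign under the alternatives run. For genes without overlap, a left-out sample or another pseudocount cannot change the sign, so only the scalings and the choice of libraries per unit could have. Of the 44, 10 lost the call when 1 sample was left out: Clk1, Crebzf, Ppargc1a, Atf4, Cdh1, Sdhc, Adgrf5, Rps15a, Hsp90aa1 and Hepacam2. Depth is unknown, so counting error could not be given for any gene.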
